A study of Mus musculus with 48 samples.

Results

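A set of 10 genes was followed through 48 RNA-seq libraries of sorted mouse immune cells: Rps3a3, Gm7600, Gm4956, Gm46223, Cnbd2, Camk2b, Slco1a6, Vmn2r97, Cfap74 and Miga1. They are 10 of 34932 genes quantified. They were picked because WT and Yap-cKO libraries had been seen to differ in them outside T cells as well as in T cells, so their difference between genotypes is described here without a test. The mice were C57BL/6J. WT denotes the wild-type controls, littermates per the methods of the study, and Yap-cKO denotes mice with a loxP-flanked Yap gene, a lox-stop-lox EYFP reporter and a Cre driven by the Cd4 promoter, which is active in developing T cells. All mice carried subcutaneous B16F10 melanoma tumors. T cells positive for CD4, T cells positive for CD8 and the remaining CD45+ CD4- CD8- cells were sorted from the tumor (TIL) and from the tumor-draining inguinal lymph node (TDLN), which gives 6 populations, 12 groups and 4 libraries in each group. The labels do not say whether the 4 libraries of a group came from separate mice, so p-values measure only the spread between these libraries.

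Libraries held from 12656510 to 24213892 counts on genes. Markers followed the sort: summed CPM of 3 CD3 genes was 1908 to 3167 in T cells of the TDLN and 6.06 to 28.8 in the CD45+ libraries. The T cell libraries from WT tumors also carried melanoma transcripts, with a sum over 5 pigment-cell markers of 4213 to 17271 CPM, against 40.97 to 2655 CPM in those from Yap-cKO tumors. Yap1, the targeted gene, was low in both genotypes in the TDLN, with 1.69 ± 0.471 CPM in WT libraries and 1.97 ± 0.536 CPM in Yap-cKO CD4+ cells (SD, n = 4 each). In CD4+ TILs it was 22.4 ± 5.17 CPM in WT libraries and 3.73 ± 2.16 CPM in Yap-cKO, in libraries that also differed in melanoma transcripts. The Y-linked genes Ddx3y and Eif2s3y exceeded 5 CPM in 18 of 18 libraries of WT replicates 1 to 3, in 0 of 6 libraries of WT replicate 4 and in 0 of 24 Yap-cKO libraries. Genotype and Y-linked expression can therefore be told apart only through WT replicate 4.

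Rps3a3 and Gm7600 are processed pseudogenes, DNA copies of a spliced mRNA inserted elsewhere in the genome, and their parent is Rps3a1, which encodes a protein of the small ribosomal subunit. Short reads from such a copy can match the parent and every other copy, and a quantifier divides them by probability, so the counts of a copy depend on the few bases by which it differs from its parent. Gm46223 is annotated as another processed pseudogene and Gm4956 as a transcribed unprocessed pseudogene. Cnbd2 encodes a cyclic nucleotide-binding domain protein, Camk2b the beta subunit of a calcium/calmodulin-dependent kinase best known in neurons, and Miga1 (mitoguardin) a mitochondrial outer membrane protein that promotes fusion. Slco1a6 belongs to the organic anion transporters, Vmn2r97 to the pheromone receptors of the vomeronasal organ, and Cfap74 to the central apparatus of motile cilia.

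Each of the 10 genes lies on a chromosome of its own, and none lies on chromosome 9, which holds Yap1. Over all 60 pairs of a gene and a population, the 4 WT and the 4 Yap-cKO levels did not overlap in 52. Levels are TMM-scaled CPM, the counts of a gene relative to the library's total, unless said otherwise. In CD4+ and CD8+ T cells of the TDLN all 10 genes were without overlap, where 1.22% and 0.925% of all tested genes were. In CD45+ cells the count was 8 in the TDLN, against 1.62% of all genes, and 10 in the tumor, against 11.5%. In CD4+ and CD8+ TILs it was 6 and 8, against 16.9% and 21.3%. The low-expressed Gm4956 was below the count minimum that those percentages used in CD8+ and CD45+ TDLN cells and CD8+ TILs, and the other 9 members passed it in all 6 populations. These comparisons chose the genes, so nothing is read from the counts. The genes higher in Yap-cKO numbered 5 (Gm7600, Gm4956, Slco1a6, Vmn2r97 and Cfap74) and those lower also 5 (Rps3a3, Gm46223, Cnbd2, Camk2b and Miga1), and each kept its direction in all 6 populations.

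**Figure D1:**
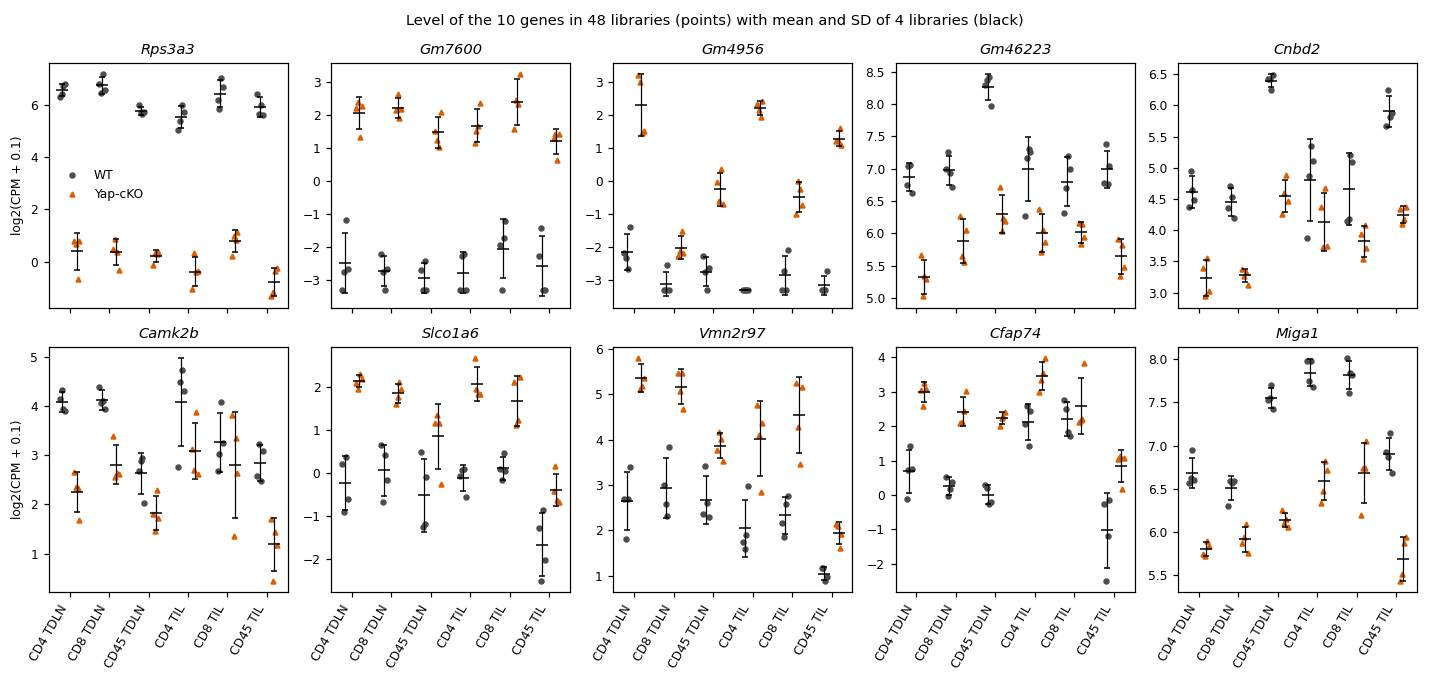
Level of each of the 10 genes as log2(CPM + 0.1) by sorted population, with 1 point for each library (grey circles WT, orange triangles Yap-cKO) and bars for the mean and SD of 4 libraries. Rps3a3, Gm7600, Gm4956 and Miga1 separate the genotypes in all 6 populations, while Camk2b overlaps in 3 of them. In CD8+ TDLN cells Gm4956 had at most 1 count in a WT library and at most 5 in a Yap-cKO library.

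The separation was complete, in the sense that no library overlapped in any population, for 4 of the 10 genes: Rps3a3, Gm7600, Gm4956 and Miga1. For Gm4956 in CD8+ TDLN cells this rests on few reads, with 0, 0, 1 and 0 counts in WT and 2, 2, 5 and 2 in Yap-cKO. Gm46223, Cnbd2, Slco1a6, Vmn2r97 and Cfap74 were without overlap in 5 of 6 populations and Camk2b in 3 of 6. The working description of the set, genes that separate the genotypes in every sorted population, thus holds in the strict sense for 4 of its 10 members. Among all 16869 genes that reached 10 counts in 4 or more of the 48 libraries, 5 genes were without overlap in the same direction in all 6 populations (0.02964%). They were these 4 and Chd9, a chromatin remodeler. A further 7 genes were without overlap in 5 of 6 populations, of which 5 were members. The others were Gm15975 (a processed pseudogene on chromosome 5, lower in Yap-cKO, median log2 ratio −2.82) and Rab6b (on chromosome 9, higher, median 1.62). These are ratios of mean CPM with 0.1 added to each mean, not edgeR values. The transcript Gm15975-201 averaged 0.3415 to 2.028 CPM in WT groups and 0 to 0.07582 CPM in Yap-cKO groups, so the ratio of Gm15975 depends on that addition. Both genes were named after their values were seen.

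Because WT replicate 4 and all Yap-cKO libraries lacked Y-linked transcripts, its levels were set beside those of the Yap-cKO libraries. They were outside the range of the 4 Yap-cKO libraries in 56 of the 60 pairs. In the TDLN this was 10 of the genes in CD4+, 10 in CD8+ and 8 in CD45+ cells, where WT replicate 4 was outside that range in 30.4, 36.5 and 43.7% of all tested genes. In the tumor it was 9, 9 and 10, where the shares over all genes were 35.6, 64.6 and 39.2%. WT replicate 4 is among the libraries that chose the genes, so nothing is read from these counts. Against WT replicates 1 to 3, replicate 4 fell inside their range in 35 pairs, above it in 11 and below it in 14.

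**Figure D2:**
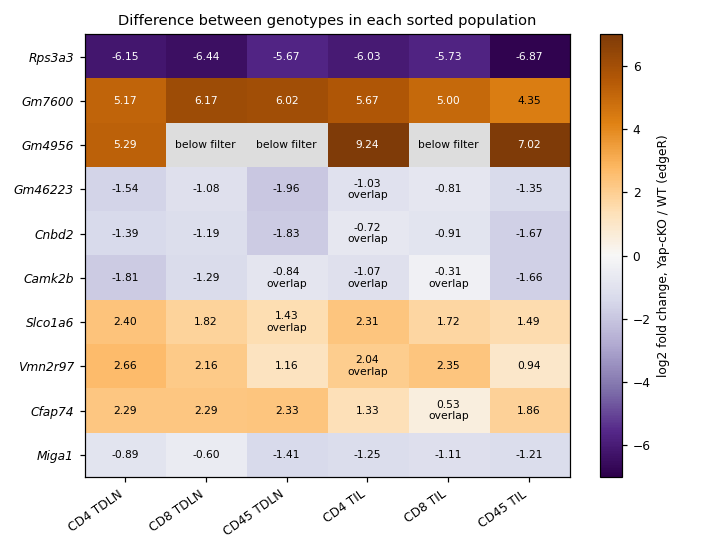
Log2 fold change between genotypes (Yap-cKO over WT, edgeR) for the 10 genes in rows and the 6 populations in columns, with overlapping groups marked and grey cells where a gene had too few counts. Rps3a3 spans −6.87 to −5.67; the values of Gm7600 and Gm4956 rest on WT libraries with few or no counts and depend on the small count that edgeR adds.

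Rps3a3 (ENSMUSG00000059751.7) occupies 795 bases of the plus strand at chr13:108670603-108671397 (GRCm38, GENCODE M21), and Gm7600 occupies 785 bases of the minus strand at chr8:11683459-11684243. Rps3a3 was 98.9% identical to the Rps3a1 transcript, with 9 substitutions, and Gm7600 was 98.7% identical over its aligned bases, with 10, and lacks 4 bases of the parent. Another copy, Rps3a2, was 99.5% identical with 4. In 75-base windows, the length of 1 read, 45.4% of those of Rps3a3 (327 of 721) and 41.6% of those of Gm7600 (296 of 711) occurred letter for letter in another gene's transcript. The sequences below show 2 stretches of the parent and the same stretches in both copies, since these differences are what lets a read be given to one gene and not to another. They are GRCm38 reference sequence, read 5′ to 3′ on the transcript strand, and capitals mark bases that differ from Rps3a1. The sequence that these mice carry was not read here. The first stretch is bases 333 to 407 of Rps3a1-201, bases 200 to 274 of Rps3a3 (chr13:108670802-108670876, plus strand) and bases 194 to 268 of Gm7600 (chr8:11683976-11684050, minus strand).
Rps3a1-201: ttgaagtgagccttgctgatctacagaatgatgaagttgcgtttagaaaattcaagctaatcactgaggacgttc
Rps3a3-201: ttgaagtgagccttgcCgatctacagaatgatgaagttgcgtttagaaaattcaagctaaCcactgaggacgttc
Gm7600-201: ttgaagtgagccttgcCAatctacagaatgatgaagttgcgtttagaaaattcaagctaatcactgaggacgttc

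The second stretch is bases 505 to 579 of Rps3a1-201, bases 372 to 446 of Rps3a3 (chr13:108670974-108671048) and bases 362 to 436 of Gm7600 (chr8:11683808-11683882).
Rps3a1-201: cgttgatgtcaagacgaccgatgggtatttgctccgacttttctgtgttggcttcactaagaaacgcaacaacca
Rps3a3-201: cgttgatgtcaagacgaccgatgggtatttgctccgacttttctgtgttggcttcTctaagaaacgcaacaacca
Gm7600-201: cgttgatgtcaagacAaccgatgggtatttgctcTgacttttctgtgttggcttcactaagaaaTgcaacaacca

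Written as parent base, position counted from 1 at the 5′ end of the copy, and base of the copy, the substitutions of Rps3a3 were T216C, T260C, C363T, A427T, T534C, G582T, A660G, C762T and G792A. The substitutions of Gm7600, beside its 4-base gap, were T210C, G211A, G377A, C396T, C426T, G488A, T524C, C611T, G730A and G753A. All of them fall within the part of the copy that matches the coding sequence of Rps3a1. T216C of Rps3a3 and T210C of Gm7600, the first capital in the first stretch, fall on the same base of the parent, 349, as does T216C of Rps3a2. T534C of Rps3a3, T524C of Gm7600 and T534C of Rps3a2 share base 667 of the parent.

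Rps3a3 was abundant in every WT library and near background in every Yap-cKO library. In CD4+ cells of the TDLN it was 78.09, 84.5, 103.6 and 109.2 CPM in WT libraries and 1.642, 1.509, 0.5345 and 1.62 CPM in Yap-cKO. In CD45+ cells of the TDLN, which the sort takes from outside the CD4+ and CD8+ gates, it was 63.42, 52.69, 49.63 and 52.7 CPM in WT libraries and 0.8271, 1.144, 1.115 and 1.187 CPM in Yap-cKO. The lowest of all WT values, 32.4 CPM in CD4+ TILs, stood far above the highest Yap-cKO value, 2.125 CPM in CD8+ TILs. The log2 fold change was −6.15 (SE 0.362) in CD4+ and −6.44 (SE 0.348) in CD8+ TDLN cells and −5.67 (SE 0.233) in CD45+ TDLN cells. In the tumor it was −6.03 (SE 0.453), −5.73 (SE 0.366) and −6.87 (SE 0.336) in CD4+, CD8+ and CD45+ cells. Of the 10 genes this was the largest fall in each population. In TPM, which divides by transcript length, the WT level ran from 228.3 ± 28.97 in CD8+ TDLN cells through CD4+ TDLN cells, CD8+ TILs, CD45+ TDLN and CD45+ TIL cells to 97.71 ± 28.45 in CD4+ TILs, and each neighbor in this order overlapped the next.

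Gm7600, the other copy, went the opposite way from a base of almost 0. In WT it had 0 to 7 counts in a library, and in Yap-cKO 33 to 131. In CD8+ T cells of the TDLN the WT libraries had 2, 1, 0 and 1 counts and the Yap-cKO libraries 82, 94, 73 and 74 counts. In CD45+ cells of the TDLN they had 1, 0, 2 and 0 counts against 57, 45, 35 and 74. No Yap-cKO library came near a WT library in any population. In CPM the Yap-cKO levels ran from 1.44 in a CD45+ TIL library to 9.277 in a CD8+ TIL library. The fitted log2 fold changes, 4.35 to 6.17, depend on the small count added to the WT libraries. In TPM, Yap-cKO levels ran from 10.72 ± 4.163 in CD8+ TILs to 4.678 ± 0.8082 in CD45+ TIL cells, with every neighbor in the order overlapping the next.

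Since the copies and the parent share reads, each was also expressed as a share of the counts of 7 Rps3a genes (Rps3a1, Rps3a2, Rps3a3, Gm7600, Gm5586, Gm13408 and Gm8960). Rps3a3 took 11.68, 11.77, 12.58 and 12.4% of them in WT CD4+ TDLN cells and 13.05, 12.32, 13.53 and 12.07% in WT CD45+ TDLN cells. Over all 24 Yap-cKO libraries it took 0.06183 to 0.194%. Gm7600 took 0.282 to 0.5568% in Yap-cKO and 0 to 0.05406% in WT. The parent Rps3a1 held 61.35 to 64.68% in WT and 81.15 to 83.04% in Yap-cKO libraries of the TDLN. Rps3a2 held 23.5 to 25.68% in WT and 16.08 to 18.13% in Yap-cKO libraries of the TDLN.

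**Figure D3:**
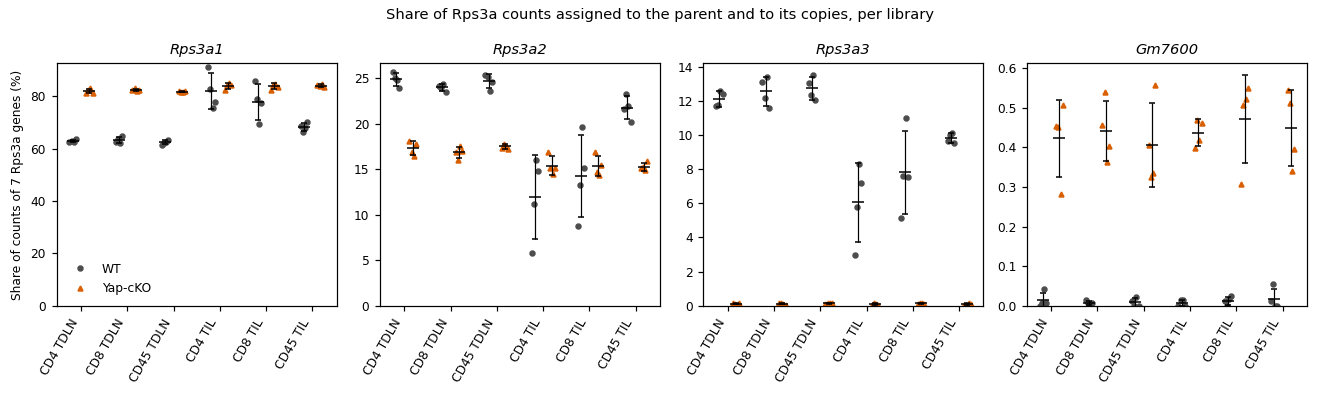
Share (%) of the counts of 7 Rps3a genes that was given to Rps3a1, Rps3a2, Rps3a3 and Gm7600, with 1 point for each library, by population and genotype, and bars for the mean and SD of 4 libraries; the 4 vertical scales differ. The Rps3a3 share lies between 2.971 and 13.53% in WT and stays at or under 0.194% in Yap-cKO, and WT CD4+ and CD8+ TILs are the groups with the widest spread.

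The WT tumor libraries differed from those of the TDLN. In CD4+ TILs the Rps3a3 share was 2.971, 5.756, 8.277 and 7.202% in WT replicates 1 to 4, where the sum of the 5 melanoma markers was 17271, 12725, 5658 and 8523 CPM. In CD8+ TILs it was 5.121, 7.62, 10.99 and 7.527%, beside 15498, 11092, 4213 and 12496 CPM. Rps3a1 held 91.17, 82.89, 75.62 and 77.87% in WT CD4+ TILs, a range that overlapped the 82.4 to 84.92% of Yap-cKO CD4+ TILs, and Rps3a2 held 5.802, 11.24, 16.02 and 14.83% against 14.46 to 16.88%. For Rps3a3 in both T cell populations, the library with most melanoma transcript, replicate 1, had the smallest Rps3a3 share, and the library with least, replicate 3, had the largest. In CD45+ TIL cells, with 830.9 to 1411 CPM of these markers, the share was 9.632, 10.02, 10.13 and 9.521%. The part of tumor cell RNA in these shares was not tested. In bulk libraries such as these, fewer cells of a type and less RNA per cell cannot be told apart.

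Rps3a1 itself was tested, since it is not a member. In the TDLN its level was higher in every Yap-cKO library than in any WT library. It was 486.3 ± 63.17 CPM in WT libraries and 802.5 ± 96.1 CPM in Yap-cKO CD4+ cells, 0.72 higher on the log2 scale (SE 0.193, adjusted p = 0.970 by edgeR's quasi-likelihood test). In CD45+ TDLN cells it was 267.6 against 552 CPM, a log2 fold change of 1.04 (adjusted p = 0.138). In the tumor the log2 fold changes were −0.15, 0.08 and −0.02 in CD4+, CD8+ and CD45+ cells. Rps3a1 and Rps3a2 passed the test in none of the 6 populations. The 7 genes summed to 772.8 ± 96.85 CPM in WT libraries and 978.9 ± 117.5 CPM in Yap-cKO CD4+ TDLN cells and to 429.3 ± 48.9 and 675.1 ± 69.43 CPM in CD45+ TDLN cells (SD, n = 4). Those reads of Rps3a1 that match a copy equally well were divided by the quantifier, so these levels are not independent of those of Rps3a3 and Gm7600.

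Gm4956 (chr1:21285246-21298312, minus strand) is annotated as a pseudogene that kept its introns and is transcribed. Its closest relative by sequence was Gsta4, a glutathione S-transferase that conjugates products of lipid peroxidation, at 70.31% identity over 603 bases. It was nearly silent in WT, with 0 to 5 counts in a library. In CD4+ TILs, WT libraries had 0, 0, 0 and 0 counts and Yap-cKO libraries 77, 72, 51 and 85. Against a floor of 3 counts in each WT library, that level was at least 25.1-fold higher. In CD45+ TIL cells the counts were 0, 0, 0 and 1 in WT and 44, 45, 69 and 38 in Yap-cKO. In CD4+ TDLN cells they were 2, 2, 1 and 5 against 155, 148, 54 and 48, a log2 fold change of 5.29 (SE 0.645). The groups did not overlap in these populations, nor in those where counts were lower.

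Among Yap-cKO libraries the level of Gm4956 depended on the population. In TPM it was 10.95 ± 6.298 in CD4+ TDLN cells, 8.116 ± 2.03 in CD4+ TILs and 3.861 ± 1.063 in CD45+ TIL cells, each overlapping the next. It was 1.559 ± 0.5912 in CD45+ TDLN cells and 1.242 ± 0.2761 in CD8+ TILs, which overlapped each other and lay below CD45+ TIL cells without overlap. It was 0.3016 ± 0.09233 in CD8+ TDLN cells, below all others. In the 3 populations with the lowest levels the gene had too few counts to enter the fit. In CD8+ TDLN cells the counts, 0, 0, 1 and 0 in WT and 2, 2, 5 and 2 in Yap-cKO, were too close to the floor for a fold. The relative Gsta4 moved otherwise. It fell in Yap-cKO libraries of all 3 tumor populations, from 86.54 ± 25.05 to 12.78 ± 10.76 CPM in CD4+ TILs (log2 fold change −2.76, adjusted p = 0.0174 by edgeR). The log2 fold changes in CD8+ and CD45+ TIL cells were −2.89 (adjusted p = 0.0209) and −2.61 (adjusted p = 0.0100), and these 3 calls were lost in 2, 4 and 1 of 8 fits without 1 library. It did not pass in CD4+ or CD8+ TDLN cells and had too few counts in CD45+ TDLN cells. These falls ran beside the lower melanoma transcripts of the Yap-cKO tumor libraries, and the part of those transcripts in them was not tested.

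Gm46223 (chr10:50422134-50422808, minus strand, 675 bases) was lower in Yap-cKO, though not absent. In CD45+ TDLN cells it was 315.5, 331.3, 340.9 and 252.1 CPM in WT libraries and 105.4, 65.65, 75.8 and 72.66 CPM in Yap-cKO. In CD4+ TDLN cells it was 107.1, 131.4, 133.4 and 98.48 CPM against 50.54, 32.44, 40.28 and 38.94 CPM. The genotypes overlapped in CD4+ TILs only, where WT replicate 1 had 76.89 CPM and Yap-cKO replicate 1 had 83.4 CPM. The log2 fold change was largest in CD45+ TDLN cells, at −1.96 (SE 0.204), and smallest in CD8+ TILs, at −0.81 (SE 0.223). In TPM the WT level in CD45+ TDLN cells, 893.7 ± 216.5, stood clear of the next, 341.6 ± 107.1 in CD4+ TILs, and the other 5 populations overlapped each other in order. Yap-cKO levels ran from 223.8 ± 65.31 in CD45+ TDLN cells to 118.8 ± 14.1 in CD4+ TDLN cells, each overlapping the next.

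The best match of Gm46223 among other genes was Chd9, at 94.95% identity over 218 bases, although none of its 75-base windows occurred whole in another gene. Chd9, the 1 non-member without overlap in all 6 populations, was 528 ± 52.97 CPM in WT libraries and 183.1 ± 42.68 CPM in Yap-cKO CD45+ TDLN cells. Most of that level fell on Chd9-206, which averaged 499.5 CPM in WT libraries and 148.2 CPM in Yap-cKO. This transcript of 759 bases shares stretches with Gm46223-201, Cnbd2-202 and Miga1-205. Another transcript, Chd9-201, averaged 1.226 and 0.878 CPM. The log2 fold change of the whole gene in CD45+ TDLN cells was −1.53 (SE 0.200, adjusted p = 0.0352 by edgeR). That call was lost in 7 of 8 fits that left out 1 library. In CD45+ and CD8+ TIL cells the changes, −0.94 (adjusted p = 0.0185) and −0.73 (adjusted p = 0.0316), passed on p but not on size. In the other 3 populations Chd9 did not pass. Since Chd9 was singled out by its lack of overlap, its test there is not independent of that choice.

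Cnbd2 (chr2:156312299-156375638, plus strand) and Miga1 (chr3:152273849-152340407, minus strand) are protein-coding genes that were both lower in Yap-cKO, most of all in CD45+ TDLN cells. There Cnbd2 was 86.01, 85.19, 75.7 and 89.7 CPM in WT libraries and 18.97, 24.17, 29.28 and 21.92 CPM in Yap-cKO, a log2 fold change of −1.83 (SE 0.195). Miga1 was 184.3, 187.7, 207.8 and 172 CPM in WT libraries and 76.04, 68.83, 70.89 and 66.73 CPM in Yap-cKO, a log2 fold change of −1.41 (SE 0.152). Both groups of 4 were well apart for each gene. Miga1 was without overlap in all 6 populations, with log2 fold changes from −1.41 to −0.60, the smallest in CD8+ TDLN cells. Cnbd2 overlapped in CD4+ TILs, at 14.49, 29.2, 40.85 and 34.4 CPM in WT libraries and 20.6, 13.13, 25.33 and 13.36 CPM in Yap-cKO.

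By length-corrected level the genes differed in where they were high. In TPM, WT Miga1 was 106.2 ± 5.471 in CD4+ TILs, 99.58 ± 6.454 in CD8+ TILs and 89.16 ± 12.5 in CD45+ TDLN cells, and after a gap without overlap 53.15 ± 6.228 in CD45+ TIL cells, then CD4+ and CD8+ TDLN cells. Its Yap-cKO levels, 24.36 to 44.85 TPM, overlapped from each population to the next. WT Cnbd2 was 69.79 ± 10.89 TPM in CD45+ TDLN cells and 45.54 ± 14.14 TPM in CD45+ TIL cells, which overlapped. The 4 T cell groups, 17.2 to 23.28 TPM, lay below both without overlap. In Yap-cKO, CD45+ TDLN cells were again highest for Cnbd2, at 20.22 ± 2.918 TPM, without overlap with the next, CD45+ TIL cells at 14.72 ± 1.241 TPM.

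Within each of these genes 1 transcript carried the difference and another did not. Cnbd2-202 held 76.4% of the gene's counts, with 16130 counts in the 24 WT libraries and 3504 in the 24 Yap-cKO libraries. Cnbd2-201 held 21.3%, with 2611 and 2864 counts. Miga1-205 held 87.8% of its gene, with 63396 and 24343 counts, and Miga1-202 held 10.6%, with 5134 and 5457. In CD45+ TDLN cells Cnbd2-202 was 76.12 CPM in WT libraries and 14.82 CPM in Yap-cKO on average, while Cnbd2-201 was 7.339 and 7.445 CPM. Miga1-205 was 176.1 and 54.2 CPM there, and Miga1-202 was 10.59 and 14.74 CPM. Over the populations the log2 fold change of Cnbd2-201 ran from −0.02 to 0.42. Transcripts were divided by the same quantifier from reads that they largely share, so these splits are estimates. Counts did not use strand, and Scand1 overlaps the start of Cnbd2, so its reads and those of Cnbd2 cannot be fully told apart.

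**Figure D4:**
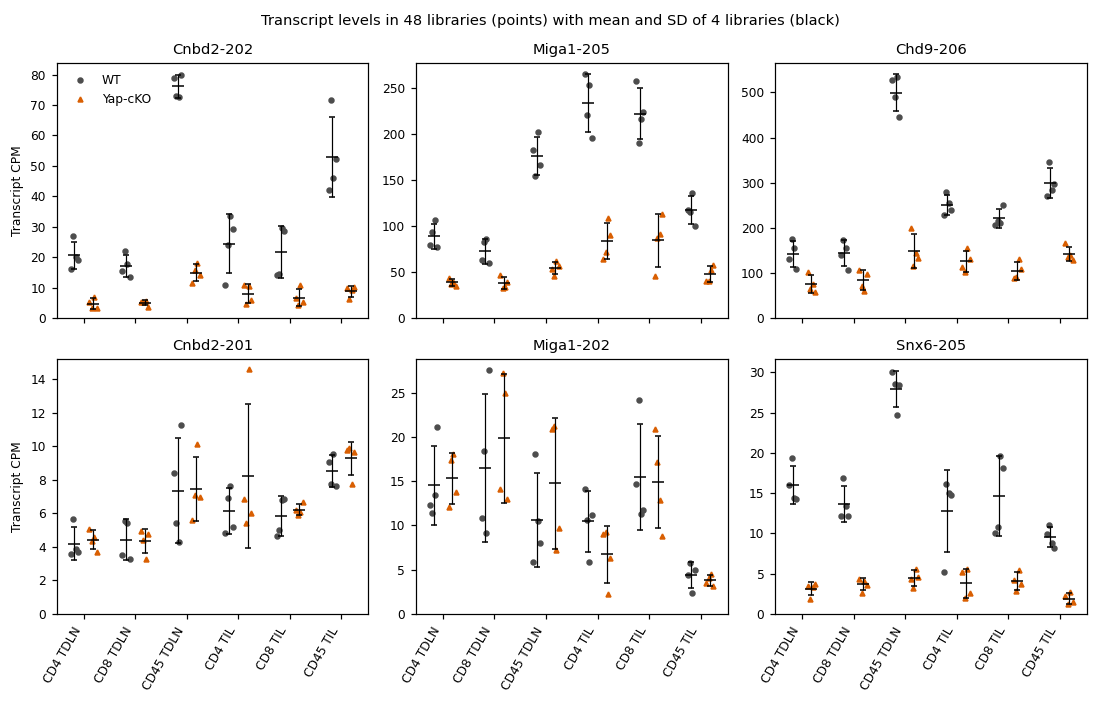
CPM of 6 transcripts by population and genotype, with 1 point for each library and bars for the mean and SD of 4 libraries; the vertical scales differ. Cnbd2-202, Miga1-205, Chd9-206 and Snx6-205 are lower in Yap-cKO, for example 499.5 against 148.2 CPM for Chd9-206 in CD45+ TDLN cells, while Cnbd2-201 and Miga1-202 overlap between genotypes.

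Cnbd2-202 and Miga1-205 also shared sequence. They matched each other over 300 bases at 92.33% identity and over another 202 bases at 95.05%. Of the 75-base windows of Cnbd2-202, 22.6% occurred whole in transcripts of Apobec3, Cep85, Chd9, Miga1 or Scand1, against 0.3% of those of Miga1-205. Slco1a6-203 and Cfap74-201 matched over 104 bases at 94.23%, on opposite strands. The other members shared no such stretch with each other, apart from Rps3a3 and Gm7600.

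Transcripts of other genes that share at least 90 bases at 90% identity or more with Cnbd2-202, Miga1-205 or Gm46223-201, which are lower in Yap-cKO, numbered 17, from 16 genes. The list was drawn up after the values of the members were seen and leaves out matches to the other members, such as the Rps3a genes and Vmn2r96. Its transcripts hold sequence of members that were chosen on this contrast, and can share their reads. Their values are therefore not independent of that choice, and nothing is read from the counts and medians below. Of the 17 transcripts, 1 passed the test. Snx6-205, from a gene of the retromer sorting complex, fell from 27.9 ± 2.28 to 4.44 ± 0.99 CPM in CD45+ TDLN cells (log2 fold change −2.65, adjusted p = 0.0215 by edgeR). In that population 1 of 16 tested transcripts was called lower, where 0.0133% of all transcripts were. In the other 5 populations 0 were called, against backgrounds of 0.00272, 0.00284, 0.438, 0.0026 and 0.0057%. At an unadjusted p under 0.05, the number lower was 5 of 14, 4 of 13 and 4 of 16 in CD4+, CD8+ and CD45+ TDLN cells, and 5 of 12, 6 of 14 and 7 of 15 in the tumor, where 0.823, 0.508, 1.2, 8, 10.7 and 5.25% of all transcripts were. The median log2 fold change of the list was −0.02, −0.31 and −0.05 in the TDLN and −0.35, −0.80 and −0.49 in the tumor, beside medians over all transcripts of 0.00, −0.00, 0.00, 0.15, 0.13 and 0.02. Snx6-205, Rsph3b-203 and Chd9-206 were each without overlap in 5 of 6 populations, where 8 of all 56146 transcripts were. They too share sequence with members chosen on this contrast. Cep85, a centrosomal protein gene that holds part of the shared stretch, fell from 174.3 ± 24.42 to 77.77 ± 18.64 CPM in CD45+ TIL cells. The log2 fold change was −1.16 (adjusted p = 0.0283 by edgeR), a call lost in 6 of 8 fits without 1 library. In CD4+ TILs it averaged 72.43 CPM in WT libraries and 95.89 CPM in Yap-cKO, and in CD8+ TILs 68.29 and 60.05 CPM. In CD4+, CD8+ and CD45+ TDLN cells it averaged 59.1, 64.44 and 461.6 CPM in WT libraries and 43.07, 47.72 and 182.9 CPM in Yap-cKO. In CD45+ TDLN cells its transcript Cep85-207 averaged 449.5 and 157.5 CPM.

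Camk2b (chr11:5969644-6066362, minus strand) was the least separated of the 10 genes. In CD4+ TDLN cells it was 17.64, 20.04, 15.25 and 14.75 CPM in WT libraries and 6.215, 5.011, 4.908 and 3.125 CPM in Yap-cKO, with a log2 fold change of −1.81 (SE 0.272). In CD45+ TIL cells it was 5.913, 9.284, 5.472 and 8.425 CPM against 3.141, 1.266, 2.626 and 2.161 CPM, a log2 fold change of −1.66 (SE 0.316). The genotypes were apart in both and in CD8+ TDLN cells. They overlapped in CD8+ TILs, at 6.322, 8.071, 16.88 and 9.467 CPM in WT libraries and 14.05, 2.455, 10.13 and 6.161 CPM in Yap-cKO, and the log2 fold change of −0.31 (SE 0.521) became 0.07 without WT replicate 3. They also overlapped in CD4+ TILs and CD45+ TDLN cells. In TPM, WT levels ran from 8.532 ± 3.965 in CD4+ TILs to 2.708 ± 0.8645 in CD45+ TDLN cells and Yap-cKO levels from 3.99 ± 3.099 in CD8+ TILs to 1.237 ± 0.4589 in CD45+ TIL cells, every neighbor overlapping the next.

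Most transcripts of Camk2b had fewer counts in Yap-cKO, but to differing degrees. Camk2b-204, with 44.5% of the counts, had 2441 counts in WT and 1103 in Yap-cKO, Camk2b-201 had 937.1 and 409.4, and Camk2b-209 had 1031 and 192.8. Camk2b-210, with 9.83% of the counts, had 429.3 and 353.3. Those with more counts in Yap-cKO were Camk2b-203, with 2.77% of the counts (96.88 and 123.5), and Camk2b-211, with 0.189% (0 and 15.08). Camk2a, Camk2d and Camk2g, which encode the other subunits of the kinase, and Miga2, the relative of Miga1, passed the genotype test in no population where they had enough counts for it.

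Slco1a6 (chr6:142085761-142208521, minus strand) was higher in Yap-cKO at a low level. It lies on the chromosome that also holds Cd4 and the ROSA26 locus, 17.2 and 29.0 Mb away. In CD4+ TDLN cells it was 1.051, 0.4346, 1.195 and 0.5608 CPM in WT libraries and 4.163, 3.772, 4.811 and 4.398 CPM in Yap-cKO. In CD4+ TILs it was 0.8557, 0.9469, 0.9714 and 0.5802 CPM against 6.185, 3.734, 3.451 and 3.431 CPM. Only in CD45+ TDLN cells did the groups overlap, at 1.291, 0.3182, 0.3414 and 0.8356 CPM against 2.141, 2.437, 2.119 and 0.7346 CPM. The log2 fold changes ran from 1.43 (SE 0.550) in CD45+ TDLN cells to 2.40 (SE 0.390) in CD4+ TDLN cells. Nearly all of its counts, 98.3%, fell on Slco1a6-203, a processed transcript without an annotated coding frame. That transcript had 307.3 counts in WT and 1218 in Yap-cKO. The protein-coding transcripts Slco1a6-204 and Slco1a6-201 had 7 and 4 counts in WT and 14 and 1 in Yap-cKO. Slco1a6-203 has 458 bases, of which 86.24% matched Wdr31 at 93.67% identity and Sirt5 at 93.69%. Of its 75-base windows, 4.2% occurred whole in other genes. The part of reads from such genes in its counts was not tested. In TPM, Yap-cKO levels of the gene Slco1a6 ran from 22.43 ± 3.757 in CD4+ TDLN cells to 2.979 ± 1.007 in CD45+ TIL cells, each overlapping the next. Its family members Slco1a1, Slco1a4 and Slco1a5 had too few counts to be tested.

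Vmn2r97 (chr17:18914300-18958087, plus strand) was higher in Yap-cKO, with log2 fold changes of 2.04 to 2.66 in the T cell populations and of 0.94 and 1.16 in CD45+ cells. With length offsets those in T cells were smaller, 1.53 to 1.90, and those in CD45+ cells 0.98 and 1.25. In CD4+ TDLN cells it was 6.366, 3.428, 6.316 and 10.37 CPM in WT libraries and 55.23, 34.54, 36.45 and 40.68 CPM in Yap-cKO, a log2 fold change of 2.66 (SE 0.333). In CD45+ TIL cells it was 2.145, 2.136, 1.749 and 1.845 CPM against 4.338, 4.202, 2.964 and 3.69 CPM, a log2 fold change of 0.94 (SE 0.246). The groups were apart in both. They overlapped in CD4+ TILs, where WT replicate 4 had 7.716 CPM and Yap-cKO replicate 3 had 7.123 CPM. Whether its change differs between populations was not tested, since the members were chosen on these contrasts. Vmn2r97-201 held 78.7% of the counts, with 1414 in WT and 8228 in Yap-cKO, and Vmn2r97-203 held 18.6%, with 941.6 and 1330. In TPM, Yap-cKO levels ran from 5.357 ± 0.4544 in CD4+ TDLN cells to 1.021 ± 0.1628 in CD45+ TIL cells, each overlapping the next.

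The neighboring receptor Vmn2r96, 298297 bases away and 91.19% identical over its best match, was also examined. It was 0.5575 ± 0.354 CPM in WT libraries and 2.879 ± 1.54 CPM in Yap-cKO CD4+ TDLN cells (log2 fold change 2.35, adjusted p = 0.668 by edgeR). In CD8+ TILs it rose from 0.4015 ± 0.178 to 2.918 ± 1.09 CPM (log2 fold change 2.82, adjusted p = 0.0184), and with 1 library left out the adjusted p reached 0.0545. Of the 75-base windows of Vmn2r97-201, 5.0% occurred whole in another gene.

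Cfap74 (chr4:155409190-155466823, plus strand) was higher in Yap-cKO. In CD45+ TDLN cells it was 1.13, 1.046, 0.7255 and 0.7759 CPM in WT libraries and 3.892, 4.625, 4.796 and 5.255 CPM in Yap-cKO, a log2 fold change of 2.33 (SE 0.294). In CD4+ and CD8+ TDLN cells the log2 fold change was 2.29 in each (SE 0.367 and 0.348). The genotypes were apart in all 3. They overlapped in CD8+ TILs, at 6.642, 5.58, 3.484 and 3.178 CPM in WT libraries and 4.243, 4.457, 4.519 and 14.02 CPM in Yap-cKO. There the log2 fold change of 0.53 (SE 0.493) became −0.10 without Yap-cKO replicate 4. In TPM, WT levels ran from 2.352 ± 1.103 in CD4+ TILs to 0.2162 ± 0.17 in CD45+ TIL cells, and in both genotypes CD45+ TIL cells lay below every other population without overlap with the next, CD45+ TDLN cells.

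Its transcripts did not move as one. Cfap74-204, with 51.1% of the counts, had 457.6 counts in WT and 1328 in Yap-cKO, and Cfap74-201, which retains an intron and held 23.4%, had 75.99 and 741.3. Cfap74-209, with 13.5%, had 245.6 and 227.3 counts. Of 75-base windows, 10.3% of those of Cfap74-204 and 2.0% of those of Cfap74-201 occurred whole in other genes, Olfr784 and Pld1 among them. Cfap74-209 had 0 such windows. Cfap74-204 matched Olfr784 over 311 bases at 100% identity. The part of reads from those genes in the counts was not tested. In CD4+ TILs Cfap74-209 averaged 1.632 CPM in WT libraries and 0.382 CPM in Yap-cKO, against the direction of the gene. Of the other genes of the same ciliary complex, Cfap46 did not pass in CD4+ or CD8+ TILs, where it could be tested. Cfap54 fell in CD4+ and CD8+ TILs, with log2 fold changes of −2.24 (adjusted p = 0.0166) and −2.71 (adjusted p = 0.0185), in the libraries that differed in melanoma transcripts.

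Tissue and cell type were not used to choose the genes, so these contrasts were tested within each genotype, with calls where the adjusted p was under 0.05 and the log2 fold change passed 1. Between tumor and TDLN, the members that reached the count minimum in the libraries of that genotype alone were counted, since Gm7600 and Gm4956 entered the WT fits only through Yap-cKO libraries. In WT CD4+ cells 3 of 8 were called, where 34.7% of all genes were. Miga1 rose in the tumor by 1.04 on the log2 scale (adjusted p = 0.000387) and Cfap74 by 1.33 (adjusted p = 0.00918), and Rps3a3 fell by 1.10 (SE 0.325, adjusted p = 0.0121). Gm4956, with 1 to 5 counts in each WT CD4+ TDLN library and 0 in each WT CD4+ TIL library, is given no test there. The fall of Rps3a3 ended as a call without WT CD4+ TIL replicate 1, at −0.95, and that library had the highest melanoma marker sum. In WT CD8+ cells 2 of 8 were called, against 37.6% of all genes, again Miga1 (1.08, adjusted p = 0.000321) and Cfap74 (1.85, adjusted p = 0.00336). The rise of Miga1 lay close to the fold limit, and its call was lost in 4 of 16 fits without 1 library in CD4+ cells and in 2 of 16 in CD8+ cells. In WT T cells the melanoma marker sum was 4213 to 17271 CPM in TILs and 6.821 to 12.51 CPM in the TDLN. Its part in these changes was not tested. In Yap-cKO CD4+ and CD8+ cells Miga1 changed by 0.68 and 0.54 and Cfap74 by 0.37 and 0.06, not called. Their changes in WT CD45+ cells were −0.45 and −0.74, also not called. In WT CD45+ cells, where Slco1a6 also had too few counts, 2 of 7 were called, against 40% of all genes, Gm46223 (−1.06, adjusted p = 0.000434) and Vmn2r97 (−1.54, adjusted p = 0.000192).

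In Yap-cKO the same contrast called 1 of 10 members in CD4+ cells, against 25.1% of all genes. It was Vmn2r97, lower in the tumor by a log2 fold change of −1.33 (adjusted p = 0.0230). In Yap-cKO CD8+ cells 0 of 9 were called, against 17.7% of all genes, and by edgeR's test 1 member, Miga1, had an unadjusted p under 0.05. In Yap-cKO CD45+ cells 3 of 10 were called, against 40.7%. Gm4956 rose by 1.78 (adjusted p = 0.00361), while Vmn2r97 (−1.76, adjusted p = 4.07e-05) and Cfap74 (−1.21, adjusted p = 0.0241) fell. The call of Vmn2r97 in CD4+ cells ended without Yap-cKO TDLN replicate 1 (−1.22, adjusted p = 0.0544 by edgeR) or TIL replicate 2 (−1.31, adjusted p = 0.0502). That of Cfap74 ended without TDLN replicate 4 (−1.11, adjusted p = 0.0611) or TIL replicate 3 (−1.02, adjusted p = 0.0743). Whether a tissue change differs between genotypes was not tested.

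Between CD45+ cells and the mean of both T cell populations, WT TDLN had 4 of 8 tested members called, where 25.2% of all genes were. Gm46223 (1.40, adjusted p = 7.22e-06), Cnbd2 (1.91, adjusted p = 7.91e-07) and Miga1 (1.01, adjusted p = 4.14e-05) were higher in CD45+ cells on the log2 scale and Camk2b was lower (−1.40, adjusted p = 0.000205). The call of Miga1 was lost in 5 of 12 fits without 1 library. In WT tumors 3 of 8 were called, against 34.3%. Cnbd2 was again higher in CD45+ cells (1.62, adjusted p = 0.000288), and Slco1a6 (−1.39, adjusted p = 0.0246) and Cfap74 (−2.72, adjusted p = 0.000907) were lower. The call of Slco1a6 ended without CD45+ TIL replicate 2 (−1.03, adjusted p = 0.0863) or replicate 4 (−1.18, adjusted p = 0.0891), and without a count filter (adjusted p = 0.0663). The melanoma marker sum in WT tumors was 4213 to 17271 CPM in T cell libraries and 830.9 to 1411 CPM in CD45+ ones. Its part in the calls of WT tumors was not tested. Gm7600 and Gm4956 had too few counts in WT to enter these contrasts.

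In Yap-cKO TDLN 3 of 10 members were called between CD45+ and T cells, against 24.3% of all genes. Cnbd2 was higher in CD45+ cells (1.34, adjusted p = 4.52e-05), and Slco1a6 (−1.04, adjusted p = 0.0193) and Vmn2r97 (−1.39, adjusted p = 0.00015) were lower. Slco1a6, near the fold limit, was no longer called without CD45+ TDLN replicate 4 (−0.77, adjusted p = 0.0556) or CD8+ TDLN replicate 3, without a count filter (adjusted p = 0.0695) or under DESeq2. In Yap-cKO tumors 4 of 10 were called, against 31.7%, all lower in CD45+ cells: Camk2b (−1.36, adjusted p = 0.0287), Slco1a6 (−1.91, adjusted p = 0.00184), Vmn2r97 (−2.0, adjusted p = 0.00202) and Cfap74 (−1.78, adjusted p = 0.00346). The call of Camk2b ended without CD45+ TIL replicate 2 (−1.14), replicate 3 or replicate 4. Rps3a3 was called in none of the 4 cell-type contrasts, and Gm7600 and Gm4956 in neither of the Yap-cKO ones.

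To see whether the difference reached beyond each gene, the genes within 1 Mb of any of the 10 were tested between genotypes. There were 330 of them with a count table entry. In the TDLN 0 of 175 tested neighbors passed in CD4+ cells, 0 of 175 in CD8+ cells and 0 of 174 in CD45+ cells by edgeR. Of all genes, with the members among them, 0.0462, 0.0158 and 0.0596% passed (6, 2 and 8 genes). Where so few genes pass, a count of 0 among the neighbors is likely in any case, so nothing is read from it. An unadjusted p under 0.05 was seen for 4, 2 and 6 neighbors, and for 1.75, 0.949 and 2.91% of all genes. The median log2 fold change of the neighbors was −0.06, −0.07 and −0.09 there, and that of all tested genes 0.00, 0.01 and −0.00. Of 18 related genes (families and best sequence matches), 0 of 12, 0 of 12 and 1 of 11 tested were called in the TDLN. In the tumor 2 of 13, 3 of 12 and 2 of 10 were called, where 8.02, 12.2 and 0.991% of all genes were. Among those called were Chd9, Cep85, Gsta4, Cfap54 and Vmn2r96. Chd9, Cep85 and Vmn2r96 share stretches with members and can share their reads, so their calls are not independent of how the members were chosen. The largest changes of neighbors in the TDLN were not called. They were those of Vmn2r96 beside Vmn2r97 in CD4+ and CD8+ cells (2.35 and 1.34) and of Ramp3 beside Camk2b in CD45+ cells (−2.15).

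**Figure D5:**
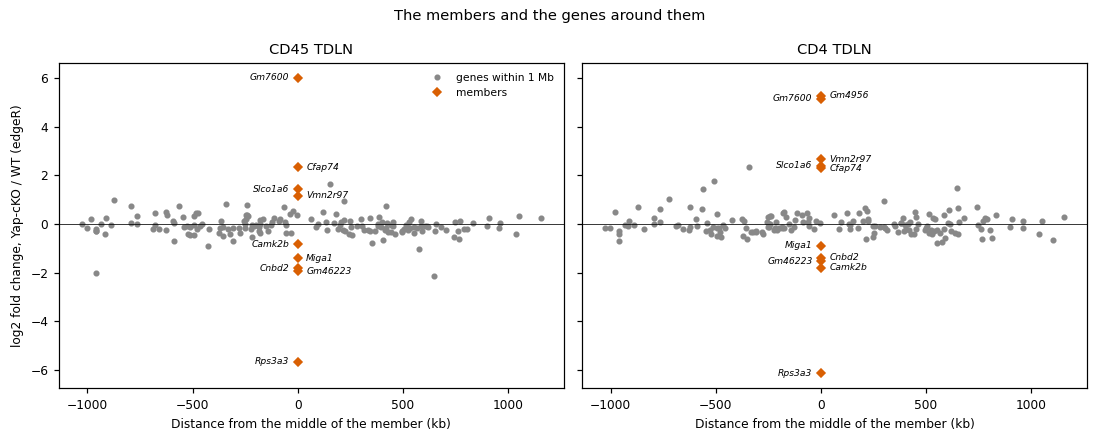
Log2 fold change between genotypes (Yap-cKO over WT, edgeR) against distance from the middle of the member (kb) for the genes within 1 Mb (grey) and the members themselves (orange), in CD45+ and in CD4+ cells of the TDLN. The neighbors center on 0, with medians of −0.09 and −0.06. The members, which were chosen on this contrast, spread from −5.67 to 6.02 in CD45+ cells.

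In the tumor, where many genes differed between genotypes, neighbors were called about as often as other genes. In CD4+ TILs 4 rose and 10 fell of 177 (7.91%, against 8.02% of all genes), in CD8+ TILs 5 rose and 13 fell of 178 (10.1%, against 12.2%), and in CD45+ TIL cells 0 rose and 1 fell of 168 (0.595%, against 0.991%). Aebp1, a connective tissue gene 97556 bases from Camk2b, was the 1 called in CD45+ TIL cells (log2 fold change −1.84, adjusted p = 0.0360). It fell in CD4+ TILs from 104.8 ± 46.58 to 11.23 ± 11.8 CPM (−3.22, adjusted p = 0.0189) and in CD8+ TILs (−3.37, adjusted p = 0.0277). Those named by the rule that fell in CD8+ TILs included Col4a2 and Col4a1, chains of basement membrane collagen, beside Gm7600 (−5.77 and −6.24), Adgrl4 beside Miga1 (−5.65), Abcc9 beside Slco1a6 (−4.71), and Vwa1 and Mxra8 beside Cfap74 (−6.56 and −3.28), with adjusted p from 0.0180 to 0.0232. Beside Cnbd2, Myl9 fell in CD4+ TILs (−3.74, adjusted p = 0.0410), Procr fell in both T cell populations (−2.41 and −3.82) and 6430550D23Rik rose in CD8+ TILs (1.68, adjusted p = 0.0472). Elovl7, a fatty acid elongase gene beside Rps3a3, fell in CD4+ TILs (−2.21, adjusted p = 0.0217), and Ldhb beside Slco1a6 fell in both T cell populations (−1.92 and −2.76). C1qtnf12 beside Cfap74 rose in CD4+ TILs (1.97, adjusted p = 0.0152), as did Gm48132 beside Gm46223 (1.83, adjusted p = 0.0174), and Ascc3 beside Gm46223 rose in CD8+ TILs (1.12, adjusted p = 0.0419). Around Gm4956 no neighbor was called. Most of these calls were lost in at least 1 fit without 1 library. These tumor libraries differed in melanoma transcripts between genotypes. They also differed in the sum of the fibroblast markers Col1a1 and Col3a1, which was 65.5 to 403.3 CPM in WT against 5.12 to 44.5 CPM in Yap-cKO CD4+ TILs, and 19.33 to 497.6 against 2.125 to 6.121 CPM in CD8+ TILs. The sum of the endothelial markers Pecam1 and Cdh5 overlapped, at 68.98 to 550.2 against 68.62 to 97.71 CPM in CD8+ TILs. The part of these cells in the neighbors' changes was not tested.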

How the data were processed

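Sorted cells were profiled by SMART-Seq v4 with 75-base paired-end reads on an Illumina HiSeq instrument. The authors trimmed reads (Trimmomatic) and quantified them with Salmon 0.9.1 against the GRCm38 transcriptome. Deposited tables hold an estimated count (expected count) and a TPM value for each transcript and library, with reads divided among matching transcripts by probability. No molecular identifiers were used, so counts are reads, not molecules, and intervals are not given for them.

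Here 111787 of 112092 transcripts were matched to GENCODE M21, and the deposited expected counts were summed for each gene and rounded. A gene entered a fit once 4 of its libraries reached 10 counts, and was tested with edgeR 4.0.16 (TMM, quasi-likelihood test, Benjamini-Hochberg adjustment over all tested genes), in R 4.3.3. Calls needed an adjusted p below 0.05 and an absolute log2 fold change above 1. Genotype was fitted within each population (8 libraries), tissue within each cell type and cell type within each tissue and genotype. DESeq2 1.42.0, no filter, length offsets, a replicate block, a Y-linked covariate and leaving out each library were alternatives. The deposited TPM, summed per gene, served for levels between genes. Sequences were compared with blastn 2.17.0. Called neighbors were named up to the 3 nearest to each member, and related genes by family or best sequence match.

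The 10 members and all lists were chosen with earlier results of these data known. Depth was 12656510 to 24213892 counts, so that 3 counts correspond to 0.124 to 0.237 CPM. Replicate numbers do not pair the genotypes, but within WT tumors same-numbered libraries of the 3 cell types deviated together (lowest correlation 0.119), so the block applies to the WT TIL cell-type contrast. Same-numbered CD4+ and CD8+ libraries also deviated together in WT TDLN (0.394 to 0.782) and Yap-cKO TIL (0.159 to 0.613), though not with CD45+ libraries in every pair; the main cell-type fits treat them as independent. Of 72 pairs of libraries within groups, 0 agreed within sampling noise. The fit was tested on simulated data.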

Additional observations from a re-analysis of the deposited data

Results flagged for a closer look

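In 102 groups of 4 libraries in which a member averaged at least 1 CPM, 1 library stood apart from the other 3 by Dixon's criterion in 8; chance marks about 1 in 20 groups. Those below the rest were Rps3a3 in Yap-cKO CD4+ TDLN replicate 3, at 0.5345 CPM against 1.509 to 1.642, Cfap74 in Yap-cKO CD45+ TIL replicate 3, at 1.016 CPM against 1.945 to 2.076, and Miga1 in WT CD8+ TDLN replicate 1, at 78.53 CPM against 94.93 to 95.93. Those above the rest were Miga1 in WT CD4+ TDLN replicate 3, at 123.2 CPM against 94.38 to 98.89, and Camk2b in Yap-cKO CD8+ TDLN replicate 1, at 10.44 CPM against 5.8 to 6.153. In the tumor they were Slco1a6 in Yap-cKO CD4+ TIL replicate 1, at 6.185 CPM against 3.431 to 3.734, and Vmn2r97 in WT CD4+ TIL replicate 4, at 7.716 CPM against 2.893 to 3.6. Cfap74 in Yap-cKO CD8+ TIL replicate 4 was 14.02 CPM against 4.243 to 4.519, and the difference between genotypes in that population changed sign without it. No library was marked for more than 1 member.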

How the results depend on the processing

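Under DESeq2, without a filter, with length offsets, with the replicate block and with the Y-linked covariate, 9 members kept their direction between genotypes in all 6 populations. Gm4956 kept it in the 3 populations where it could be fitted, and in all 6 without a filter. Sizes moved: with length offsets the largest Vmn2r97 log2 fold change was 1.898 in place of 2.656, and with the Y-linked covariate that of Slco1a6 was 3.08 in place of 2.401. In the leave-one-out fits 2 values turned: Camk2b in CD8+ TILs ran from −0.701 to 0.07456, highest without WT replicate 3, and Cfap74 in CD8+ TILs from −0.09804, without Yap-cKO replicate 4, to 0.7467. Pairs without overlap numbered 52 of 60 in CPM and 47 in TPM; leaving out 1 library, which cannot lower that number, gave up to 55. The calls on neighbors and related genes moved more, and the cause was not tested. Under DESeq2 they numbered 1 in CD4+ TDLN cells (0 by edgeR), 3 in CD45+ TDLN cells (1 by edgeR), 25 in CD4+ TILs (16 by edgeR) and 11 in CD45+ TIL cells (3 by edgeR). Without a filter and with length offsets they numbered 5 each in CD45+ TIL cells. The replicate block, whose numbers share no more than a label between genotypes, left 0 in CD45+ TDLN cells, CD8+ TILs (20 without it) and CD45+ TIL cells, where 8, 34 and 23 genes had an unadjusted p under 0.05. The Y-linked covariate left 0 in CD4+, CD8+ and CD45+ TIL cells, with 13, 47 and 20 at an unadjusted p under 0.05. Without 1 library the count ran from 0 to 1 in CD45+ TDLN cells (1 without Yap-cKO replicate 1) and from 3 (without WT replicate 2 or Yap-cKO replicate 4) to 37 (without Yap-cKO replicate 3) in CD4+ TILs. It ran from 0 (without Yap-cKO replicate 2) to 24 (without WT replicate 3) in CD8+ TILs and from 0 (without Yap-cKO replicate 2) to 4 (without Yap-cKO replicate 4) in CD45+ TIL cells. Of the members, those called between tumor and TDLN in Yap-cKO CD4+ cells numbered 2 under DESeq2 and 0 to 2 without 1 library, against 1. In the 4 cell-type contrasts the block changed no call of a member. At this depth a gene at 0 in WT, such as Gm4956, may still be transcribed below the floor of 3 counts.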

Other observations

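Transcripts were scanned in the same way as genes. Among 56146 transcripts, 4 were without overlap in the same direction in all 6 populations: Gm46223-201, Miga1-205 and Rps3a3-201 lower in Yap-cKO and Gm7600-201 higher. All 4 belong to the 10 genes, which were chosen on this contrast. Gm46223 has a single transcript, and in the transcript table, which is scaled separately, its CD4+ TIL libraries did not overlap. A further 8 transcripts were without overlap in 5 of 6 populations. Rab6b, 1 of the non-members without overlap in 5 populations, lies on the chromosome that holds Yap1, but far from it. Rab6b is at chr9:103111787-103185276 and Yap1 at chr9:7931999-8004596. The difference of Rab6b was not tested apart from the scan.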
